A study of Mus musculus with 28 samples.

Results

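The Frizzled receptors of the mouse are the products of 10 genes, Fzd1 to Fzd10, and all 10 were taken by gene symbol from the 18274 gene symbols named in 5 deposited tables. Together the 4 peak tables annotated 33 peaks to them, namely 12 of 21390 H3K4me3 peaks, 8 of 67985 H3K27me3 peaks, 5 of 6789 RNA polymerase II (Pol2) peaks and 8 of 7849 ATAC-seq peaks, while the RNA table of 597 genes listed none. The cells were hair follicle stem cells, freshly isolated from the skin of mice labelled as strain 132-C67BL/6J and sorted as double positive for CD34 and α6-integrin. Old mice were 24 months and young mice 6 months of age, with no other treatment or allele named for either age. Old and young cells gave 3 and 3 samples for RNA-seq, 4 and 4 for ATAC-seq, 3 and 3 for H3K27me3 ChIP-seq, and 2 and 2 each for H3K4me3 and Pol2 ChIP-seq. The series design calls them biological replicates, and the number of mice behind a sample was not stated. The series title asks whether promoters that carry H3K4me3 and H3K27me3 together, called bivalent, lose accessibility with age.

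Frizzled proteins cross the cell membrane and carry an outer domain, rich in cysteine, that binds Wnt proteins. With the co-receptors Lrp5 or Lrp6 they pass the signal through Dishevelled to β-catenin, and without them some members act in planar cell polarity, which aligns cells and hairs in the plane of the skin. In the hair follicle, Wnt signals are needed for the stem cells to start a new hair. By sequence the receptors fall into the subfamilies Fzd1, Fzd2 and Fzd7, then Fzd5 and Fzd8, then Fzd4, Fzd9 and Fzd10, and last Fzd3 and Fzd6. H3K4me3 is a histone mark of active and poised gene starts, H3K27me3 is laid down by the Polycomb complexes at silenced genes, and Pol2 is the enzyme that transcribes them. ATAC-seq counts the cuts of a transposase in open chromatin.

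Promoter sequences show what lies under the marks at 3 gene starts that the results turn on. Fzd10 was the only receptor gene whose start lay under both histone marks, Fzd7 had the highest H3K4me3 level per kb of peak, and Fzd5 had the largest fall of Pol2 in old cells. Each line holds the 250 bases before the RefSeq start on GRCm38.p6, with CpG pairs in capitals, from chr5:128600856-128601105 (plus strand) for Fzd10, chr1:59481897-59482146 (plus strand) for Fzd7 and chr1:64737751-64738000 (minus strand) for Fzd5.
Fzd10: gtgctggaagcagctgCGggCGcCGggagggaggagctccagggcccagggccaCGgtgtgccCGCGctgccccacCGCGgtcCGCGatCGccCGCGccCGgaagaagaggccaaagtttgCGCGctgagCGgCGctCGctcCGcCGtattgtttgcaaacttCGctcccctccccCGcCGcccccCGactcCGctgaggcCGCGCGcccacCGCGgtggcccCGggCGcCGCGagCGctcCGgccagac
Fzd7: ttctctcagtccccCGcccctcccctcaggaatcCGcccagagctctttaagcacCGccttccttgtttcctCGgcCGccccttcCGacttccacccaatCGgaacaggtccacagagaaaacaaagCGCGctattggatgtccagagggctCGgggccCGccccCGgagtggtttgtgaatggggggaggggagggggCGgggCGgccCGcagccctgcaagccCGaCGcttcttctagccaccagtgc
Fzd5: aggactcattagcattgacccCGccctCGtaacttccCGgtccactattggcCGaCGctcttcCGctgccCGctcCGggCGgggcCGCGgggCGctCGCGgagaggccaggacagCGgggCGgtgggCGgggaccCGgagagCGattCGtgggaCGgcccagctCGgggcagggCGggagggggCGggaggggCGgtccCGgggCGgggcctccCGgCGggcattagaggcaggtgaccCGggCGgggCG
The RefSeq promoter table held 6 of the 10 receptors (Fzd1, Fzd4, Fzd5, Fzd7, Fzd9 and Fzd10), each as a window of 300 bases that ends 50 bases after the start. In that window CpG pairs numbered 53 for Fzd9, 45 for Fzd10, 38 for Fzd5, 32 for Fzd4, 24 for Fzd7 and 16 for Fzd1, against a median of 7 over all 32851 promoters in the table. Fzd9 and Fzd10 therefore had more CpG pairs than 99.5% and 98.1% of promoters, and Fzd1 more than 67.0%. The GC share ran between 54.0% for Fzd1 and 78.0% for Fzd9, with a median of 52.7% over all promoters. On either strand, the GC box GGGCGG stood in 5 of the 6 windows, all but that of Fzd1, against 35.7% of all promoters. The CCAAT box CCAAT stood in the windows of Fzd4, Fzd5 and Fzd7, against 37.4% of all promoters, and the TATA box TATAAA in that of Fzd1 alone, against 13.6%. CTTTGAT and CTTTGAA are forms of the core letters bound by the TCF and LEF factors of the Wnt pathway. Neither stood in any of the 6 windows, against 3.73% and 5.14% of all promoters. Other forms of this core were not counted, such as CTTTGTT, which the Fzd7 line above holds on its other strand. All 6 windows lay in an H3K4me3 peak, those of Fzd1, Fzd5 and Fzd7 also in a Pol2 peak, and in the Fzd10 window 171 bases lay in an H3K27me3 peak.

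H3K4me3 marked the start of all 10 receptor genes. In old cells the mark was lower at every one of these starts, with log2 fold changes of old over young between −1.71 at Fzd5 and −1.16 at Fzd3 in the authors' deposited table, all past its false discovery rate (FDR) of 0.05. That table calls 79.1% of all its H3K4me3 peaks lower in old cells and 0.281% higher, and for peaks within 1 kb of a gene start 94.3% lower and 0.037% higher. The share of Frizzled starts called lower was thus near the background of all promoters. The median over the 10 starts was −1.45, beside −1.42 over the 13505 promoter peaks in the authors' deposited table. All 10 values lay between −1.76 and −1.10, the bounds of the middle 80% of promoter peaks in that table. For 8 genes the peak over the start is annotated to the gene itself. The peak over the Fzd4 start is annotated to its neighbour Tmem135, and the one over the Fzd10 start to the antisense RNA gene Fzd10os, and both were added by position after the tables had been seen. The ChIP-seq tables give only the authors' mean level per age and no value per sample, so the levels carry no SD, and which neighbours in their order differ beyond the spread between samples cannot be told. In such sorted bulk samples, fewer cells with a mark and less mark per cell cannot be told apart. How ChIP-seq reads were normalized between samples is not stated, and their depth is unknown. A shift of whole libraries therefore cannot be told apart from either reading, and none of these was tested. Levels are given as normalized reads per kb of peak, computed from the authors' mean.

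Fzd7, Fzd2 and Fzd1 had the highest and broadest H3K4me3 of the family. Fzd7 is the main Wnt receptor of intestinal stem cells in mice. Its peak, 13.5 kb wide, had 792 normalized reads per kb in old cells and 2288 in young cells, as the authors' mean. This level exceeded 99.8% and this width 98.8% of promoter peaks. It had a log2 fold change of −1.54 (FDR 6.43e-05) in the authors' deposited table. The Fzd2 peak was 14.9 kb wide, wider than 99.1% of promoter peaks, with an authors' mean of 714 normalized reads per kb in old and 2063 in young cells. Its log2 fold change in the authors' deposited table was −1.53 (FDR 2.65e-05). The log2 levels of Fzd7 and Fzd2 were the same to the decimals of the authors' deposited table, at 13.38 in old and 14.91 in young cells, and the positions differ. Fzd1, which acts with Fzd2 in closing the palate of mouse embryos, had a peak of 10.6 kb with an authors' mean of 390 normalized reads per kb in old and 927 in young cells. Its log2 fold change was −1.25 (FDR 0.000308) in the authors' deposited table. Another H3K4me3 peak annotated to Fzd1, 261 kb downstream of its start, was also called lower in the authors' deposited table, at −1.58 (FDR 0.00151). The 3 broad domains did not share a side of the promoter median: Fzd7 and Fzd2 lay 0.12 and 0.11 below it and Fzd1 lay 0.17 above it on the log2 scale of the authors' deposited table.

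Fzd5 and Fzd8 had the largest H3K4me3 decreases of the family. Fzd5 is needed for vessels of the yolk sac and for Paneth cells of the gut in mice. The authors' mean at its start was 193 normalized reads per kb in old and 632 in young cells, over 5.92 kb. With −1.71 (FDR 1.73e-07) in the authors' deposited table, it lay 0.29 below the promoter median, and 1720 of the 13505 promoter peaks fell at least as far. Fzd8, its closest relative, had 241 normalized reads per kb in old and 730 in young cells as the authors' mean over 7.36 kb. Fzd8 had −1.60 (FDR 9.84e-07) in the authors' deposited table, beside −1.59 at Fzd10, −1.54 at Fzd7 and −1.53 at Fzd2. Without a value per sample, whether Fzd8 differs from these cannot be told.

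The subfamily of Fzd4, Fzd9 and Fzd10 had lower levels than Fzd1, Fzd2, Fzd5, Fzd7 and Fzd8 at either age. This was not particular to the subfamily. Fzd3 lay below Fzd4 at either age, at 170 normalized reads per kb in old and 381 in young cells. Fzd4 is the receptor of norrin in retinal vessels as well as a Wnt receptor. Over its start the authors' mean was 185 normalized reads per kb in old and 475 in young cells, close to the medians of all promoter peaks, 179 and 476. Its log2 fold change in the authors' deposited table was −1.36 (FDR 2.92e-06). Fzd9, known for its part in bone formation in mice, had an authors' mean of 162 normalized reads per kb in old and 401 in young cells, and −1.31 (FDR 2.94e-06) in the authors' deposited table. At Fzd10 the authors' mean was 113 normalized reads per kb in old and 342 in young cells, the lowest of the family at either age and above only 25.5% of promoter peaks. Fzd10 had −1.59 (FDR 1.79e-06) in the authors' deposited table.

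Fzd3 and Fzd6 orient hairs in mouse skin through planar cell polarity. The Fzd6 start had an authors' mean of 260 normalized reads per kb in old and 644 in young cells over 6.10 kb. Its log2 fold change in the authors' deposited table was −1.31 (FDR 7.48e-06). At Fzd3 the peak was 8.99 kb wide, with an authors' mean of 170 normalized reads per kb in old and 381 in young cells. With −1.16 (FDR 0.000276) in the authors' deposited table, Fzd3 had the smallest decrease of the family. The remaining H3K4me3 peaks of the receptors were narrow ones in introns of these same genes. In the authors' deposited table the Fzd3 peak had a log2 fold change of 0.32 (FDR 0.582), and the 2 Fzd6 peaks had −0.40 (FDR 0.405) and −0.52 (FDR 0.425). Counted over annotated peaks, 9 of 12 were called lower and 0 higher in the authors' deposited table, and the same 9 were those with an unadjusted p under 0.05.

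**Figure D1:**
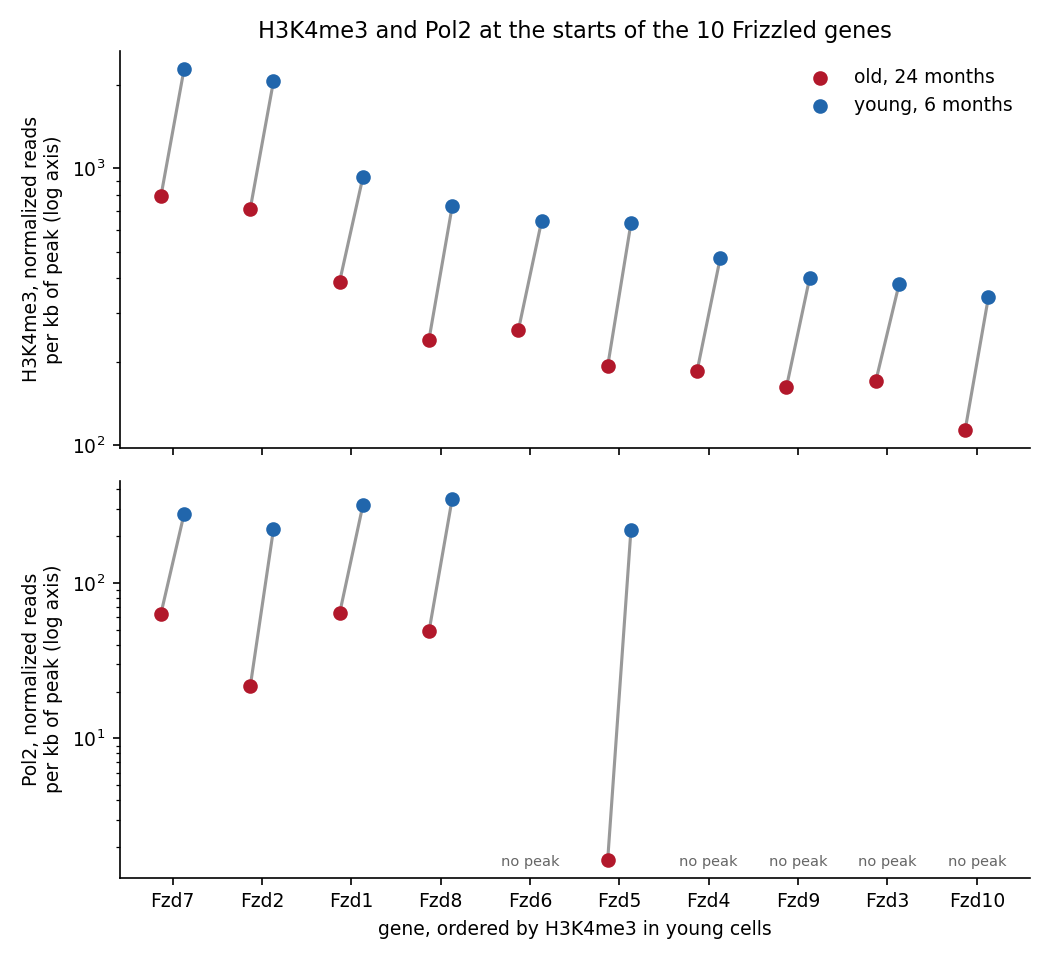
H3K4me3 (upper panel) and Pol2 (lower panel) at the starts of the 10 Frizzled genes, as the authors' mean per age in normalized reads per kb of peak on log axes. Red points are old cells and blue points young cells, joined per gene. The old point is below the young one at all 10 H3K4me3 starts and at the 5 genes with a Pol2 peak, and Fzd5 has the widest Pol2 gap, 1.66 against 219.

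Pol2 peaks were annotated to 5 receptors, Fzd1, Fzd2, Fzd5, Fzd7 and Fzd8, and no Pol2 peak was listed for Fzd3, Fzd4, Fzd6, Fzd9 or Fzd10. These 5 genes make up the whole of the Fzd1, Fzd2 and Fzd7 subfamily and the pair of Fzd5 and Fzd8. Of the 5 peaks, 4 were called lower in old cells and 0 higher in the authors' deposited table, beside 52.9% lower and 0.0442% higher among all Pol2 peaks, and 79.1% lower and 0% higher among promoter peaks. The median of the 5 log2 fold changes was −2.84, beside −2.28 over 3743 promoter peaks in the authors' deposited table. The count called was thus near the background.

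Fzd5 had the largest fall. At chr1:64736750-64738365, over the Fzd5 start, the authors' mean was 1.66 normalized reads per kb in old and 219 in young cells. As a whole-peak level this was 2.68 normalized reads in old and 355 in young cells, so the value in old cells lies near the lowest levels the table holds. The log2 fold change was −7.05 (FDR 7.38e-09) in the authors' deposited table, and 39 of 3743 promoter peaks in that table fell at least as far. Because the level in old cells is a few normalized reads, the size of this fold change depends on how the authors treated low counts, which the sources used here do not give. Fzd5 was also the receptor with the largest H3K4me3 decrease.

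Fzd8, Fzd1 and Fzd7 had Pol2 decreases closer to the promoter median. At Fzd8 the authors' mean was 48.7 normalized reads per kb in old and 349 in young cells, with −2.84 (FDR 0.00128) in the authors' deposited table. Fzd1 had 63.7 in old and 316 in young cells on the same scale of the authors' mean, with −2.31 (FDR 0.00708) in the authors' deposited table. Fzd7 had 63.3 in old and 279 in young cells, with −2.14 (FDR 0.0102) in the authors' deposited table. The medians of all promoter peaks were 64.7 normalized reads per kb in old and 303 in young cells. Fzd1 and Fzd7 thus sat near the middle of Pol2 promoter peaks in level per kb although their H3K4me3 was among the highest. Their Pol2 peaks were wide, at 3.38 kb and 3.85 kb beside a median of 1.46 kb over promoter peaks. As whole-peak levels, their Pol2 exceeded 82.2% and 82.8% of promoter peaks.

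Fzd2 was the exception to the calls. Its peak had an authors' mean of 21.6 normalized reads per kb in old and 222 in young cells. The log2 fold change was −3.35 in the authors' deposited table, larger than at Fzd1, Fzd7 or Fzd8, with an unadjusted p of 0.119 and an FDR of 0.182. With 2 samples per age and no value per sample, the spread behind this FDR cannot be shown. The Fzd2 peak also began 351 bp after the RefSeq start, while the Pol2 peaks of the other 4 receptors covered their starts.

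**Figure D2:**
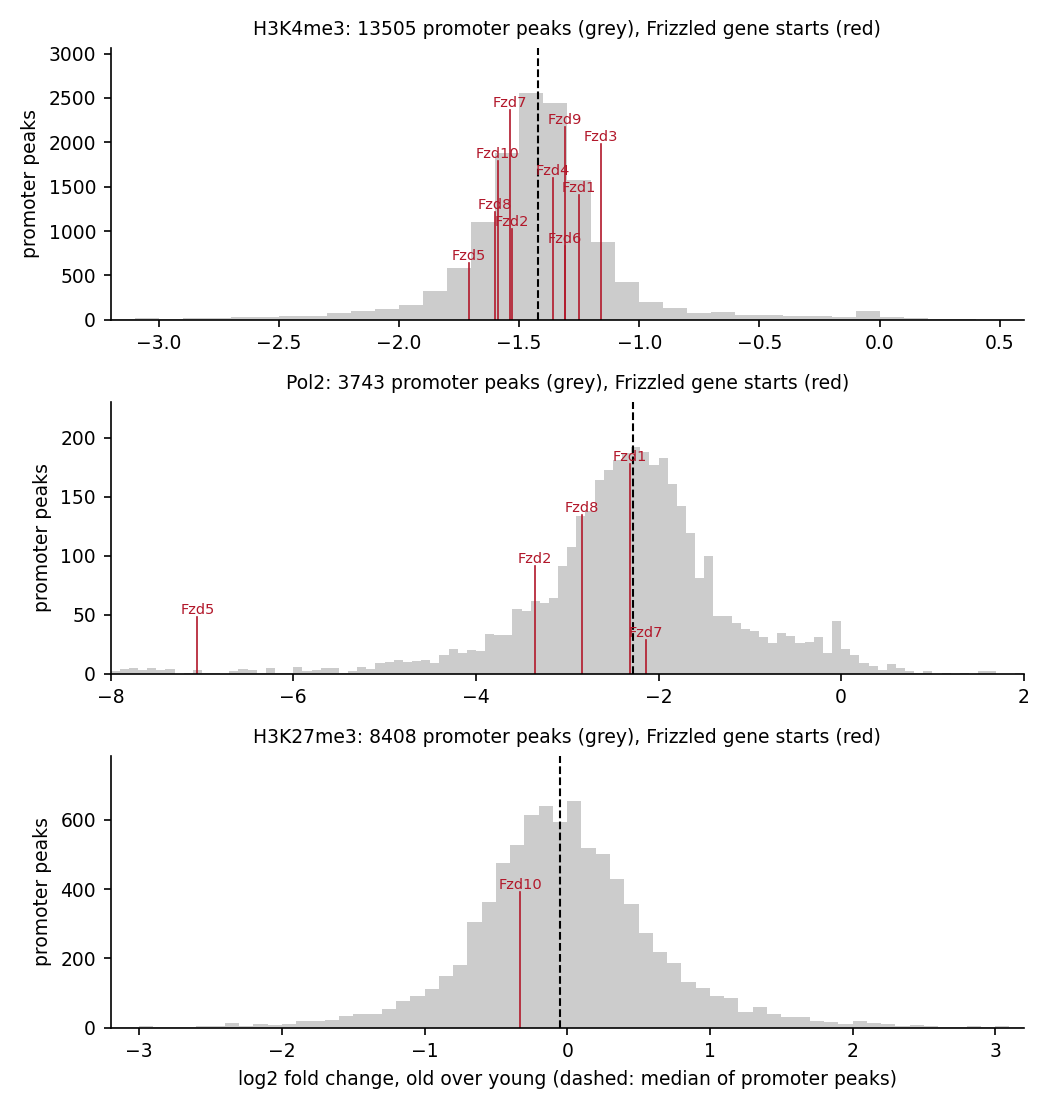
Log2 fold changes of old over young at Frizzled gene starts (red lines, with heights set only to keep the names apart) on the distribution over all promoter peaks of each mark (grey bars, number of promoter peaks per 0.1 log2, with peaks beyond the axis ends not drawn; dashed line, median). The 10 H3K4me3 values lie within the bulk around −1.42, the Pol2 value of Fzd5 at −7.05 lies in the far lower tail, and the H3K27me3 value of Fzd10 is −0.33.

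Among the 10 receptors, H3K27me3 covered the start of Fzd10 alone. Fzd10 is expressed in limb buds and neural tube of the mouse embryo. From the other starts, the nearest H3K27me3 peak lay 5.01 kb away at Fzd4, 10.4 kb at Fzd5, 46.2 kb at Fzd9, 56.1 kb at Fzd2, 102 kb at Fzd3, 115 kb at Fzd7, 123 kb at Fzd6, 273 kb at Fzd8 and 725 kb at Fzd1. Of the 8 H3K27me3 peaks annotated to receptors, 4 belonged to Fzd10, 3 to intergenic sequence 17.9 to 20.8 kb beyond the Fzd4 start, and 1 to Fzd5. In the authors' deposited table, made with DiffBind, 0 of the 8 passed an FDR of 0.05 in either direction and 2 had an unadjusted p under 0.05, both of them Fzd10 peaks. Among all H3K27me3 peaks 2.6% were called lower and 2.66% higher, and among promoter peaks 9.19% lower and 3.14% higher.

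The Fzd10 gene lies at chr5:128601106-128604093 on the plus strand, and its start sits at the edge of an H3K27me3 peak of 24995 bp, chr5:128600985-128625979. The authors' mean in this peak was 94.8 normalized reads per kb in old and 118 in young cells, above 88.9% of promoter peaks. Its log2 fold change in the authors' deposited table was −0.33 (p 0.0146, FDR 0.144), beside a median of −0.05 over 8408 promoter peaks. A second peak, 13.2 kb wide and starting 33.2 kb downstream of the start, had 77.9 normalized reads per kb in old and 100 in young cells as the authors' mean. There the authors' deposited table gives −0.36 (p 0.0341, FDR 0.236). The 2 smaller Fzd10 peaks between them had log2 fold changes of 0.42 (FDR 0.762) and 0.20 (FDR 0.755) in the authors' deposited table.

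H3K27me3 peaks annotated to Fzd10 or to the antisense gene Fzd10os numbered 16, spread over 91.1 kb of which they covered 68.4 kb. Another peak within that span, from −9.00 to −7.68 kb of the Fzd10 start, was annotated to neither gene and is not in these counts. Its authors' mean was 48.4 normalized reads per kb in old and 24.7 in young cells, and whether it was called is not reported here. Values on both sides of 0 stood among the 16, and none of the 16 passed the threshold. Of the 16, 9 had a log2 fold change below 0 and 7 above 0 in the authors' deposited table, 0 were called, 5 had an unadjusted p under 0.05, and the lowest FDR was 0.0551. That lowest FDR belonged to a peak of 7.07 kb annotated within 1 kb of a start of Fzd10os, chr5:128593615-128600680, with −0.55 in the authors' deposited table. Immediately beside the start the mark had a gap of 304 bp, between this peak and the wide downstream peak, whose edge lies 121 bp upstream of the RefSeq start and so inside the promoter sequence of Fzd10 given above. The H3K4me3 peak over the start, 4.51 kb wide, spanned the gap, and 4.21 kb of it (93.3%) lay under the 2 H3K27me3 peaks.

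**Figure D3:**
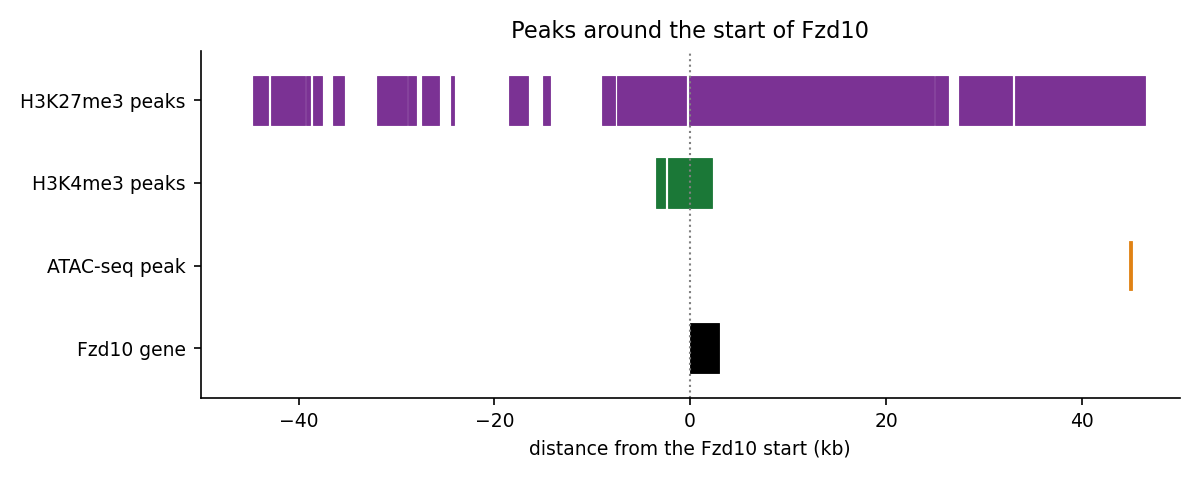
Peaks within 50 kb of the Fzd10 start, by distance from the start in kb (dotted line at 0, gene running to the right). H3K27me3 peaks (purple) lie over the H3K4me3 peak at the start (green), except for a gap of 304 bp just upstream of the start. They also cover another H3K4me3 peak, from −3.46 to −2.55 kb. Its authors' mean was 73.3 normalized reads per kb in old and 126 in young cells. The ATAC-seq peak (orange) lies 44.8 kb downstream.

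With peaks assigned by the start they cover, 1 of the 10 receptors, Fzd10, had an H3K4me3 start peak that overlapped H3K27me3, a share of 10.0%. By the deposited annotation the count was 0 of 8, since the Fzd10 start peak is annotated to Fzd10os. Over all genes with an H3K4me3 promoter peak by that same annotation, 1779 of 11585 (15.4%) overlapped H3K27me3 by at least 1 bp. No such background was counted for peaks assigned by the start they cover. On the log2 levels of both marks at both ages, the genes nearest to Fzd10 among 1580 genes with a promoter peak of each mark were Sptbn4 (Euclidean distance 0.21 over 4 values) and Lmo2 (0.26). The H3K4me3 log2 level was 9.09 in old and 10.64 in young cells at Sptbn4, beside 9.00 and 10.59 at Fzd10, as the authors' mean. For H3K27me3 it was 11.25 in old and 11.35 in young cells at Sptbn4, beside 11.21 and 11.53 at Fzd10.

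Open chromatin was listed at 8 peaks annotated to the receptors as the nearest gene, none within 20 kb of their starts and 5 of them annotated to Fzd1. Whether these peaks act on the receptor genes was not tested. The deposited table lists only peaks with an absolute log2 ratio of at least 0.50 between the ages and a −log10 p of at least 2.00, so receptor starts without a listed peak may be open and alike at both ages. Counts summed over all listed peaks ran between 1572998 and 1946804 in the 4 old libraries and between 2456110 and 2773284 in the 4 young ones. These sums move with every count below. Without scaling between libraries, edgeR's quasi-likelihood test with Benjamini-Hochberg adjustment over all 7849 peaks called 4 of the 8 peaks lower in old cells and 0 higher, beside 46.4% lower and 5.43% higher of all listed peaks. At an unadjusted p under 0.05 the count higher was also 0. After TMM scaling it called 0 lower and 1 higher, beside 0.701% lower and 13.9% higher. TMM scaling raised the log2 fold change of old over young by a median of 0.59 over the listed peaks, and the peaks themselves had been selected on the same contrast, so the FDR ranks peaks and does not bound false calls.

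Of the 5 Fzd1 peaks, the one nearest upstream, at chr5:4791051-4791800 and 32.8 kb before the start, had the highest mean count at either age. It had counts of 504, 483, 393 and 299 in old libraries and 656, 831, 554 and 544 in young libraries. Every old count was below every young one. It had a log2 fold change of −0.62 (edgeR FDR 0.0297), and −0.06 (edgeR FDR 1.00) after TMM scaling. At chr5:4623351-4623850, 134 kb downstream of the start, counts were 214, 193, 195 and 149 in old and 228, 370, 248 and 338 in young libraries, again without overlap. This gave −0.66 (edgeR FDR 0.0420) unscaled and −0.07 (edgeR FDR 1.00) after TMM scaling.

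At chr5:4594501-4595250, 163 kb downstream of the Fzd1 start, counts were 277, 528, 268 and 282 in old and 503, 611, 455 and 368 in young libraries. Old replicate 2 stood with the young libraries. The log2 fold change was −0.52 (edgeR FDR 0.0689) with it and −0.81 (edgeR FDR 0.0273) without it. After TMM scaling of all libraries it was 0.06 (edgeR FDR 1.00), so its direction turned with the scaling. At chr5:4734051-4734500 the counts were 174, 76, 205 and 151 in old and 278, 224, 188 and 188 in young libraries, which overlap. The value was −0.53 (edgeR FDR 0.0999), and it turned to 0.06 (edgeR FDR 1.00) after TMM scaling.

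One Fzd1 peak had more counts in old cells. At chr5:4894901-4895350, in an intron 137 kb upstream of the Fzd1 start, counts were 238, 262, 159 and 225 in old and 189, 142, 109 and 158 in young libraries. Only old replicate 3 lay within the range of the young libraries. The log2 fold change was 0.56 (edgeR FDR 0.0721) unscaled and 1.15 (edgeR FDR 0.00374) after TMM scaling, the single Frizzled peak called higher in old cells under that scaling.

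The peak annotated to Fzd5 lay in an intron 76.2 kb upstream of its start, at chr1:64813951-64814750. Counts were 397, 420, 312 and 290 in old and 501, 531, 510 and 603 in young libraries, without overlap. This gave −0.60 (edgeR FDR 0.0299) unscaled and −0.01 (edgeR FDR 1.00) after TMM scaling. The Fzd6 peak, at chr15:38978301-38979900 and 26.4 kb upstream of its start by the deposited distance, had the most counts of the 8. Its counts were 1053, 901, 967 and 529 in old and 1365, 1350, 1236 and 1044 in young libraries, and only the lowest young library lay within the old range. The log2 fold change was −0.53 (edgeR FDR 0.0335), and 0.03 (edgeR FDR 1.00) after TMM scaling, so its direction turned with the scaling.

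The Fzd10 peak, at chr5:128645951-128646200, lay inside the 13.2 kb H3K27me3 peak and had the fewest counts. They were 49, 76, 30 and 65 in old and 57, 118, 101 and 102 in young libraries, and the ranges overlapped through young replicate 1. This gave −0.78 (edgeR FDR 0.0729), and −0.17 (edgeR FDR 1.00) after TMM scaling. Over the 8 peaks, every old count was below every young count at 3 and above at 0, beside 35.8% and 4.88% of listed peaks. The shares of receptor peaks with lower counts were therefore near those of the whole list. The calls of the 4 peaks lay close to the threshold. Without old replicate 3 edgeR called 0 of them, with log2 fold changes between −0.68 and −0.54 and FDRs between 0.0518 and 0.0697. Without old replicate 4 it also called 0, with log2 fold changes between −0.56 and −0.36 and FDRs between 0.0570 and 0.0832. Without young replicate 2 it called 1 peak lower, and without young replicate 3 or young replicate 4 it called 2.

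Within 10 kb of the 10 starts 1 ATAC-seq peak was listed, at chr14:65264751-65264900 inside the H3K4me3 peak of Fzd3 and annotated to the neighbouring gene Fbxo16. It had 30, 25, 24 and 17 counts in old and 43, 76, 50 and 52 in young libraries, without overlap. Its log2 fold change was −1.20 (edgeR FDR 0.0292) unscaled and −0.63 (edgeR FDR 0.580) after TMM scaling.

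**Figure D4:**
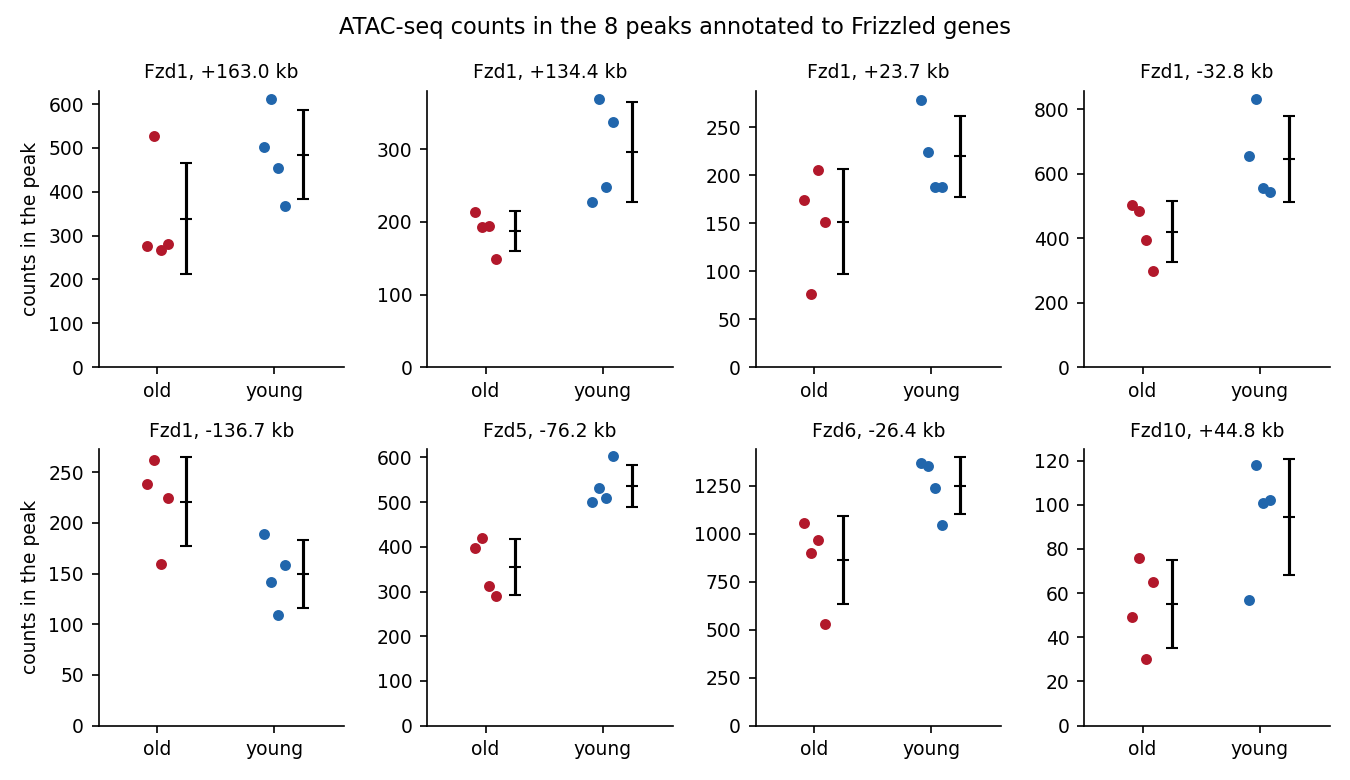
ATAC-seq counts in the 8 peaks annotated to Frizzled genes, 1 panel per peak, titled with the gene and the distance from its start in kb (plus is downstream). Points are libraries (red old, blue young, 4 each), and the bar beside them is the mean ± SD. Old means are lower in 7 panels and higher in the Fzd1 panel at −136.7 kb, at 221 against 150 counts.

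RNA of the receptors could not be compared. The authors' deposited table lists 597 genes, all with an adjusted p up to 0.1, and 0 of the 10 receptors were among them, beside 38% of listed genes called higher and 18.8% called lower in old cells at an adjusted p of 0.05. Those shares are of genes already selected for the table and are no background for genes it does not list, and how many genes the authors tested is not stated. The table gives no level for an unlisted gene, so the transcript levels of the receptors were not analysed here and a change too small for that threshold is possible. Fzd5, with its Pol2 log2 fold change of −7.05 in the authors' deposited table, was thus also among the genes not listed for RNA.

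The sort label was checked against 10 marker genes of bulge stem cells, among them Cd34, Itga6, Sox9, Lhx2 and Krt15. All 10 had an H3K4me3 promoter peak, at 250 to 1245 normalized reads per kb in old and 687 to 4427 in young cells as the authors' mean, 9 of 10 had a Pol2 promoter peak and none an H3K27me3 promoter peak. Fzd7, Fzd2 and Fzd1 lay within that H3K4me3 range at both ages, and Fzd6 within it in old and below it in young cells. Fzd8 lay below it in old and within it in young cells, and Fzd3, Fzd4, Fzd5, Fzd9 and Fzd10 below it at both ages. Of the markers of other skin cells, H3K4me3 promoter peaks stood at 0 of 5 for immune cells, 1 of 3 for endothelium, 3 of 5 for fibroblasts, 2 of 5 for melanocytes, 3 of 3 for sebaceous gland and 2 of 5 for interfollicular epidermis, and no such marker had a Pol2 promoter peak. Where present, these H3K4me3 peaks had 58.6 to 237 normalized reads per kb in old and 222 to 561 in young cells as the authors' mean. Fzd3, Fzd4, Fzd9 and Fzd10 lay within this range at both ages, and Fzd5 in old cells only. Pol2 peaks outside promoters were listed for the melanocyte markers Mitf and Tyr, 1 each. Of all these markers the authors' deposited RNA table listed Cd74 of immune cells, called lower in old cells with a log2 fold change of −1.36, and 2 that were not called, Nfatc1 of bulge cells at −0.34 and Col1a2 of fibroblasts at −0.39. Their part in the results above was not tested.

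Other genes of the Wnt pathway were counted from 5 lists, by their promoter peaks. H3K4me3 promoter peaks were present at 14 of 20 ligands, 11 of 13 co-receptors and other receptors, 12 of 19 secreted antagonists and turnover factors, 20 of 22 intracellular transducers and 10 of 12 planar cell polarity genes, and at 8 of 10 Frizzled genes by annotation. In the authors' deposited table all of these genes were called lower in old cells except 1 of the 12 antagonists and turnover factors, with list medians between −1.52 for ligands and −1.33 for co-receptors, beside −1.42 for the Frizzled genes and for all promoters. H3K27me3 promoter peaks were present at 14 of 20 ligands and 11 of 19 antagonists and turnover factors. They were fewer at co-receptors (2 of 13), transducers (2 of 22), polarity genes (3 of 12) and Frizzled genes (1 of 10). Pol2 promoter peaks were present at 5 of 10 Frizzled genes, 6 of 22 transducers, 3 of 13 co-receptors, 2 of 19 antagonists, 1 of 12 polarity genes and 0 of 20 ligands. These counts are a description and were given no test.

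Some of the pathway genes with the lowest FDR of their list act with or on Frizzled receptors. Tspan12, which assists Fzd4 in norrin signalling, had an H3K27me3 promoter peak that fell by 0.92 on the log2 scale (FDR 0.00117) in the authors' deposited table. Lgr4, a receptor of R-spondins, which spare Frizzled proteins from removal, had a Pol2 log2 fold change of −2.24 (FDR 0.00556) in the authors' deposited table. Rnf43, the ligase that removes Frizzled proteins from the cell surface, had −1.85 for Pol2 (FDR 0.0278) in the authors' deposited table. The Pol2 decreases of Lgr4 and Rnf43 were smaller than the median of −2.28 over promoter peaks, of which 79.1% were called lower. Frzb, a secreted decoy that carries a Frizzled cysteine-rich domain, had −2.34 for H3K4me3 (FDR 6.07e-08) in the authors' deposited table. The median over H3K4me3 promoter peaks was −1.42, and 94.3% of them were called lower. Celsr3, a cadherin that works with Fzd3 in axon growth, was the 1 polarity gene whose promoter H3K27me3 was higher in old cells, at 0.78 (FDR 0.00205) in the authors' deposited table. For H3K27me3 the median over promoter peaks was −0.05, with 9.19% called lower and 3.14% called higher. Ror2, a Wnt5a receptor, was the only listed pathway gene in the RNA table, at 0.54 (adjusted p 0.0996), and was not called in the authors' deposited table.

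**Figure D5:**
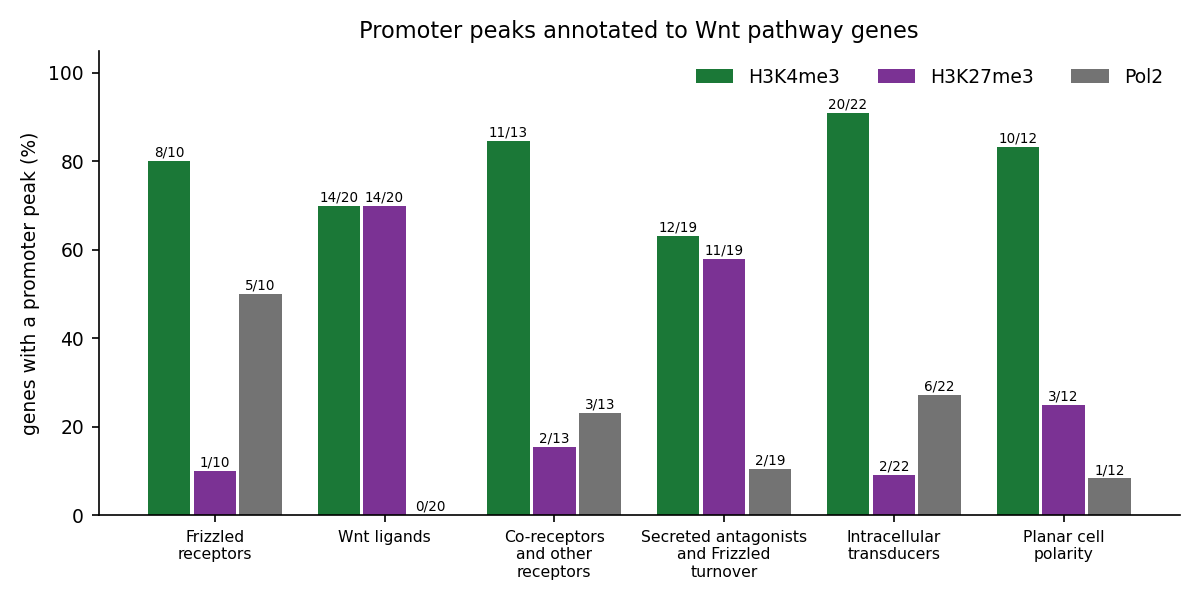
Share of genes with a promoter peak (within 1 kb of a start, by the deposited annotation) in % of each Wnt pathway list, for H3K4me3 (green), H3K27me3 (purple) and Pol2 (grey). Numbers over the bars are genes with a peak out of the list. Frizzled genes have 8 of 10, 1 of 10 and 5 of 10, and ligands 14 of 20, 14 of 20 and 0 of 20.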

How the data were processed

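Groups were taken from sample titles, with ages from the series design. The receptors, lists and tests were chosen with earlier results of these data known. Per the submitters' processing notes, the authors used STAR 2.5.2b, featureCounts and DESeq2 1.22.2 on GRCm38.p5 for RNA, BWA 0.7.12 for ATAC-seq, and BWA 0.7.15, MACS2 2.2.7.1 and DiffBind 2.14.0 for ChIP-seq, the last 2 assays on GRCm38. Per the file headers, the RNA table gives for each gene a mean normalized signal, a log2 fold change, a test score and p-values. For each ATAC-seq peak the authors deposited a whole-number count per library, a log2 ratio and a −log10 p. The authors' ChIP-seq tables hold log2 mean normalized read counts per age, their log2 difference (young minus old, turned here to old over young), a p-value and an FDR, and how reads were normalized between samples is not stated. Depth is unknown for RNA and ChIP-seq.

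Here, levels per kb were computed as the normalized read count divided by peak width. ATAC-seq counts were tested with edgeR 4.0.16 (quasi-likelihood F-test, equal library sizes, filterByExpr, which removed no peak) in R 4.3.3, two-sided and with Benjamini-Hochberg adjustment. Only the form with TMM scaling was tried first on simulated data, and the form with equal library sizes was not. Called means an FDR or adjusted p under 0.05. Alternatives were TMM scaling, library totals, DESeq2 1.42.0, filters on low counts, other thresholds, a replicate block and leaving out each library. No pair of libraries agreed within sampling noise (lowest chi-square per degree of freedom 10.8). Overlaps used bedtools 2.31.1 (at least 1 bp), a promoter peak lies within 1 kb of a start, starts and promoter sequences came from RefSeq tables of GRCm38.p6, and Python 3.11.15 with pandas 2.3.3, numpy 2.4.6 and matplotlib 3.10.9 made tables and figures. Named were all receptors with every peak, and for each other Wnt list and table at most 2 genes, those with the lowest FDR, of which some are printed. Likeness to a receptor was the distance over log2 levels of both marks for genes with promoter peaks of each. By annotation no receptor had both, so the H3K4me3 peak over the Fzd10 start was used.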

Additional observations from a re-analysis of the deposited data

Results flagged for a closer look

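At the Fzd1 ATAC-seq peak chr5:4594501-4595250, old replicate 2 had 528 counts, while the other old libraries had 277, 268 and 282 counts and the young libraries 503, 611, 455 and 368. Its gap to the nearest old library was 0.946 of the range of the old group, above Dixon's 95% critical value for 4 samples. The same rule was applied to 16 groups of libraries, and chance passes it in about 1 of 20 groups. With this library the log2 fold change of old over young was −0.52 (edgeR FDR 0.0689), and without it −0.81 (edgeR FDR 0.0273).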

How the results depend on the processing

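The ATAC-seq counts of Frizzled peaks depended on scaling. Called lower in old cells were 4 peaks unscaled, 0 with TMM scaling, 0 with library totals, 0 with DESeq2's own size factors and 4 with DESeq2 size factors at 1. Called higher were 0 unscaled, and 1 with each of those first 3 scalings, always the Fzd1 peak at chr5:4894901-4895350. Thresholds of 0.01 and 0.1 gave 0 and 7 lower, and 0 and 1 higher. Leaving out single libraries gave 0 to 4 lower (0 without old replicate 3 or old replicate 4, 1 without young replicate 2, 2 without young replicate 3 or young replicate 4) and 0 to 0 higher. Filters on low counts left the count at 4. Signs turned for 3 peaks. The Fzd1 peak starting at 4734051 had 0.0563 with TMM and 0.0475 with DESeq2, the Fzd6 peak 0.0257 with TMM, 0.0153 with DESeq2 and 0.0188 with the block and TMM, and the Fzd1 peak starting at 4594501 had 0.0587 with TMM, 0.0475 with DESeq2 and 0.0376 with the block and TMM. Replicate numbers were not stated to pair the ATAC-seq libraries. Same-numbered old and young libraries had correlations of deviations of −0.03, −0.11, 0.04 and −0.19, and differently numbered ones had −0.10 to 0.17. These values show no pairing and, with so few libraries, cannot exclude it. With the replicate number as a block, 0 peaks were called lower unscaled, and with TMM 0 lower and 1 higher. Apart from these, over single ATAC-seq peaks 81 values kept direction and side of the threshold, 34 fell short of it and 5 passed it anew. The overlap of H3K4me3 and H3K27me3 was 0 receptors by annotation, and, in an alternative chosen after seeing the data, 1 with the peak over the start, 1 with at least 0.5 of it covered and 0 with the whole of it covered. With the peaks over the starts of Fzd4 and Fzd10, added in the same way, H3K4me3 calls were 11 lower. Pol2 calls were 3 at an FDR of 0.01. Other H3K4me3, H3K27me3, Pol2 and RNA counts stayed within 1.5 times under the other thresholds and promoter classes tried. The cause of these shifts was not tested. No paired analysis was possible for RNA and ChIP-seq because those tables carry no value per sample.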
